A study of Mus musculus with 7 samples.

Results

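The BCL2 family controls whether the mitochondrial outer membrane stays intact, and so whether a stressed cell dies by intrinsic apoptosis. Anti-apoptotic members such as Bcl2, Bcl2l1 (BCL-XL) and Mcl1 bind and restrain the effectors Bax and Bak1, which form the pores that release cytochrome c. BH3-only members, here Bcl2l11 (BIM), Bbc3 (PUMA), Pmaip1 (NOXA), Bid and Bmf, tip that balance towards death. Bid is also a direct substrate of caspase 8, whose cut links death receptors to the mitochondria, and small cell lung cancer (SCLC), a neuroendocrine tumor, is known for its reliance on Bcl2, Bcl2l1 or Mcl1. These 10 genes were listed by name, and all 10 were present among the 56941 genes of the 4 count matrices.

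Single-nucleus RNA sequencing was done on fresh-frozen primary SCLC lung tumors of 4 male mice taken at endpoint. RP1 and RP2, the RP animals, carried Rb1 fl/fl together with Trp53 fl/fl. RPC1 and RPC2, the RPC animals, carried the same alleles and a conditional Casp8 allele, which the label writes as Casp8-/-. Tumors of both genotypes were started by inhaled adenoviral Cre under the CMV promoter, which is not limited to one cell type, so that every animal shared the loss of Rb1 and Trp53 and the virus, and stromal cells that never met the virus kept intact alleles. The age of each animal at endpoint is not in the sources used here.

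Of 38353 nuclei, 38254 were kept, 8363 to 10853 per animal, with a median of 2223 to 3392 transcripts per nucleus. RPC nuclei held more transcripts (medians of 3392 and 2767 against 2255 and 2223 per nucleus), and the 18S ribosomal RNA gene Rn18s-rs5 took 3.09% and 5.35% of their transcripts against 9.99% and 8.49% in RP animals. Marker genes assigned 32180 nuclei to a tumor-like class. The naming rule needed at least 8 of 16 neuroendocrine markers in a cluster. That none of the 16 was at 0 in any animal is therefore no test of the name. None was at 0 either in the tested classes of other cells, described further on. The transcripts summed over tumor-like nuclei were scaled by the trimmed mean of M-values (TMM) and are given as TMM-scaled CPM. Each sum was divided by its total over the genes tested times a TMM factor. That factor was 0.968, 0.992, 1.03 and 1.01 in RP1, RP2, RPC1 and RPC2. Casp8 stood at 59.2 and 60.8 CPM in the RP animals and at 88.9 and 66.0 CPM in the RPC animals. The library labels for RPC were therefore not borne out by a lower Casp8 level, and since the count covers the whole gene and not only the deleted exons, it does not check the deletion. RPC means animals so labelled throughout.

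The promoters of 3 members are shown because their transcripts were the members that were higher in S phase, as described further on. The sequences come from RefSeq on build GRCm38.p6 and run from upstream of an annotated start to just after it, 300 bases in all, 5′ to 3′ on the strand of the gene. Capitals mark every match, on either strand, to a GC box (GGGCGG, an Sp1-type element) or a FOXO motif (TGTTTAC).
Bcl2, chr1:106714241-106714540, minus strand: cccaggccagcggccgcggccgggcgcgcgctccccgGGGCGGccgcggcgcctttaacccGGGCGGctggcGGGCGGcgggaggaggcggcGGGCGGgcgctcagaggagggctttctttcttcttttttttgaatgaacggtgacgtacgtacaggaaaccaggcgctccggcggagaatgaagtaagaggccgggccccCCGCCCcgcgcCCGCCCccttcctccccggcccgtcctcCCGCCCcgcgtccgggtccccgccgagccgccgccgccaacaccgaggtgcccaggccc
Bcl2l11, chr2:128125788-128126087, plus strand: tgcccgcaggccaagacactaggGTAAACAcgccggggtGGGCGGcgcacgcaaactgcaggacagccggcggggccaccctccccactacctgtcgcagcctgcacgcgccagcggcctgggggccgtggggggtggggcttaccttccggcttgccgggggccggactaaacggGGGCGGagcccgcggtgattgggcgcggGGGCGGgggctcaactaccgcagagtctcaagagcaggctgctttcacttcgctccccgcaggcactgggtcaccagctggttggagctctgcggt
Bid, chr6:120916775-120917074, minus strand: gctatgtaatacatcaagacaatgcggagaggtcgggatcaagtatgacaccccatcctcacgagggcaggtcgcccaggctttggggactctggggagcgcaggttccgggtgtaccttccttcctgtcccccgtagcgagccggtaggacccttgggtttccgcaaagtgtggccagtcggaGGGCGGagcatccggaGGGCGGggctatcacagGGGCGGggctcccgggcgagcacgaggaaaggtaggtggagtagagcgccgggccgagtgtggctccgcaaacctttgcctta
The Bcl2 window held 7 GC boxes, and the Bcl2l11 and Bid windows held 3 each. The Bcl2l11 window also held 1 FOXO match. A sequence was matched for 9 of the 10 members, with 16 annotated starts. A GC box was found in 10 of these 16 windows (62.5%) and in 35.7% of all 32851 promoters. An E2F motif (TTCCCGC, which overlaps GC boxes in part) was found in 1 member window, that of Bbc3, and in 4.60% of all promoters. The FOXO motif was found in 2 member windows, those of Bbc3 and Bcl2l11, and in 3.65% of all promoters. Matches describe the letters in these windows and say nothing on binding.

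In tumor-like nuclei Bcl2l1 and Bcl2 gave the most transcripts and Pmaip1 almost none. Bcl2l1 stood at 121, 117, 98.2 and 129 TMM-scaled CPM in RP1, RP2, RPC1 and RPC2, and Bcl2 at 66.0, 82.9, 80.1 and 68.0. Pmaip1 was seen as 1, 3, 5 and 4 transcripts among all tumor-like nuclei of these animals. The genes differ in length (Bcl2 spans 176 kb and Mcl1 4.46 kb on GRCm39) and nuclear RNA holds introns, so levels between genes were compared per kb of gene body. On that scale Mcl1 was highest at 4.78 CPM per kb (mean of the 4 animals), followed by Bcl2l1 at 2.28, Bax at 1.60, Bcl2l11 at 0.999, Bmf at 0.870, Bak1 at 0.838, Bbc3 at 0.751, Bcl2 at 0.422, Bid at 0.206 and Pmaip1 at 0.0114. The animals of neighbors in that order overlapped from Bax through Bbc3, while Mcl1 with Bcl2l1, Bcl2l1 with Bax, Bbc3 with Bcl2, Bcl2 with Bid and Bid with Pmaip1 did not overlap. The margins were narrow for Bcl2l1 over Bax (lowest 1.92 against highest 1.91 CPM per kb) and for Bbc3 over Bcl2 (0.476 against 0.471). Per kb of exon the order changed, with Bcl2l1 first at 22.7, then Bcl2 at 8.06 and Mcl1 at 6.11 CPM per kb, so the place of Bcl2 among the anti-apoptotic members rested on the length used.

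**Figure D1:**
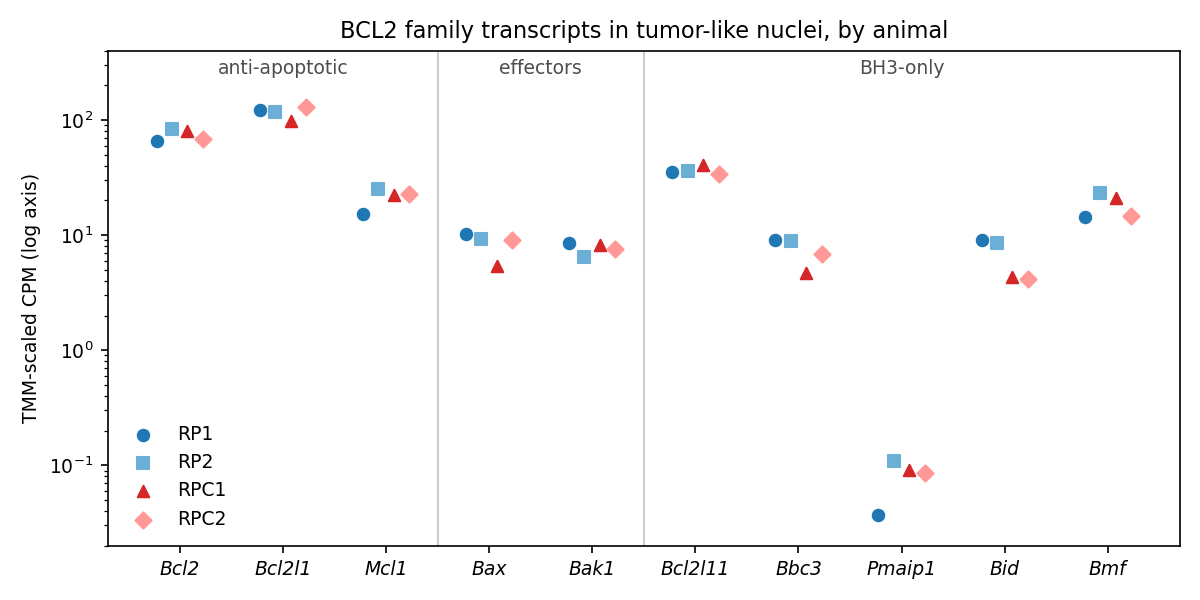
TMM-scaled CPM (log axis) of the 10 members in tumor-like nuclei, with 1 point per animal, grouped by role. Bcl2l1 and Bcl2 lie highest, Pmaip1 lies lowest with 1 to 5 transcripts per animal, and both RPC points lie below both RP points for Bax, Bbc3 and Bid.

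The comparison of RPC with RP tumor-like nuclei asked whether the family shifted where Casp8 was targeted. No member passed edgeR's quasi-likelihood test after Benjamini-Hochberg adjustment, and neither did any other gene (0 of 20171 tested, 0%). At an unadjusted p under 0.05 the test gave 1 of 9 tested members, Bid, beside 3064 genes in all (15.2%), and DESeq2 called 633 of 36644 genes (1.73%) and 1 member, again Bid. With 2 animals per genotype, p-values measure only the spread between these animals.

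Among the anti-apoptotic members, none had RP and RPC animals apart. Bcl2 gave a log2 fold change of -0.01 with an SE of 0.18 (adjusted p = 0.987). Bcl2l1 differed by -0.07 ± 0.18 (adjusted p = 0.874), with RPC1 lowest and RPC2 highest of the animals. Mcl1, a short-lived guardian under tight protein turnover, was read at 15.3, 25.2, 22.1 and 22.7 TMM-scaled CPM in RP1, RP2, RPC1 and RPC2 (0.15 ± 0.28, adjusted p = 0.819). RP1 alone stood low, and without it the Mcl1 difference turned to -0.17.

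Of the effectors, Bax read 10.1 and 9.27 TMM-scaled CPM in RP1 and RP2 and 5.41 and 9.11 in RPC1 and RPC2. Both RPC animals lay below both RP animals, RPC2 by a small margin, and the log2 fold change was -0.42 ± 0.33 (adjusted p = 0.556). Without RPC1 the Bax difference was -0.08. Bak1 read 8.47, 6.47, 8.25 and 7.64, with overlapping genotypes (0.09 ± 0.26, adjusted p = 0.889).

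Bid showed the largest difference of the members. Its TMM-scaled CPM was 9.06 and 8.55 in the RP animals and 4.31 and 4.15 in the RPC animals, from 243, 238, 238 and 194 transcripts. The genotypes did not overlap, and animals of one genotype differed by far less than the gap between genotypes. The log2 fold change was -1.06 ± 0.25, with an adjusted p of 0.273 by edgeR and of 0.0308 by DESeq2 (log2 fold change -1.01), so whether Bid passed depended on the tool. The difference was between -1.09 and -1.01 when any 1 animal was left out, and was lower in RPC in 7 of 7 sublibraries (-1.43 to -0.88). It was -1.05 without Rn18s-rs5 and mitochondrial genes, and -0.87 over all kept nuclei. Per barcoding well, Bid was 7.23 and 9.78 CPM in RP1 and 9.24 and 7.56 in RP2, against 3.06, 5.21 and 5.29 in RPC1 and 4.29 and 4.07 in RPC2, again without overlap. Sublibraries and wells are parts of the same 4 animals, so they add no replicates.

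Reads of Bid are limited by overlapping genes. Bcl2, Bcl2l1, Bax, Bak1 and Bcl2l11 also overlap other annotated genes, on the opposite strand or on both strands. Bid lies on the minus strand at chr6:120862525-120894171 (GRCm39), and 28.8 kb of its 31.6 kb overlap Bcl2l13 on the plus strand, another member of the wider family that sits on mitochondria. Whether the counting used strand is not given in the sources used here, and without strand reads of the shared stretch cannot be told apart. Bid also overlaps Gm17812 on the opposite strand and Gm44260 on its own strand, and strand would not separate Bid from Gm44260. Bcl2l13 read 45.4, 41.5, 67.3 and 43.3 TMM-scaled CPM, and its log2 fold change of 0.35 ± 0.24 ran in the other direction.

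Bbc3, a p53 target, was the second BH3-only member with genotypes apart, at 9.06 and 8.84 TMM-scaled CPM in RP1 and RP2 and 4.67 and 6.89 in RPC1 and RPC2 (-0.63 ± 0.29, adjusted p = 0.372). It was lower in RPC in 7 of 7 sublibraries (-0.89 to -0.52), which are parts of the same animals and no replicates. Its difference was -0.37 without RPC1. Bcl2l11 read 35.0, 36.4, 40.5 and 34.0 (0.06 ± 0.17, adjusted p = 0.879) and Bmf read 14.3, 23.1, 20.9 and 14.6 (-0.07 ± 0.32, adjusted p = 0.926), both with overlapping genotypes. In all, the genotypes were apart for 3 of 9 tested members, each lower in RPC, while they were apart for 10158 of all 20171 genes (50.4%), so the share among the members was below the background. Pmaip1 had too few transcripts to be tested.

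**Figure D2:**
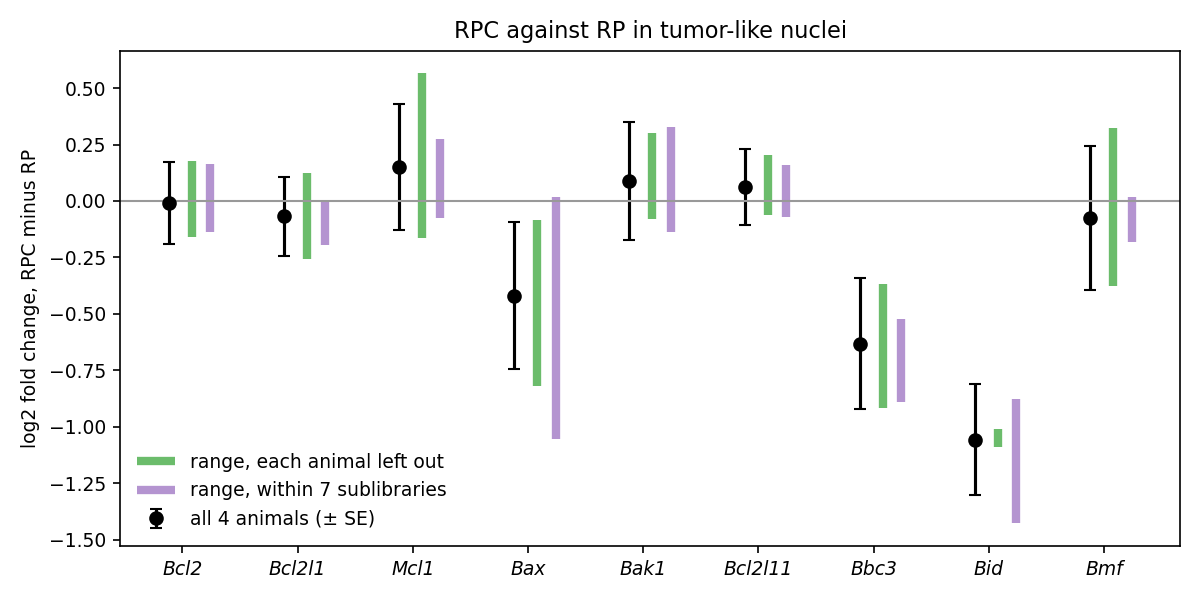
Log2 fold change of RPC against RP in tumor-like nuclei for the 9 tested members, with black points and SE from the fit of all 4 animals, green bars for the range when each animal was left out and purple bars for the range within 7 sublibraries. The bars of Bid and Bbc3 stay below 0, those of Bid between -1.43 and -0.88, while the bars of the other members reach close to 0 or cross it.

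The wider pathway gave no calls either, with 0 of 35 tested genes passing in edgeR and 0 of 39 in DESeq2. In edgeR 6 of the 35 (17.1%) were at an unadjusted level under 0.05, against 15.2% of all genes. Of 14 further BCL2 family genes, 10 were tested, with 2 positive and 8 negative log2 fold changes and a median of -0.38, against a median of -0.01 and 9907 positive to 10264 negative over all genes tested. Of these, Bnip3, a hypoxia-linked mitophagy receptor, read 66.7, 45.3, 44.4 and 19.8 TMM-scaled CPM in RP1, RP2, RPC1 and RPC2 (-0.80 ± 0.43, adjusted p = 0.415). Hrk, a neuronal BH3-only gene, read 1.31, 2.16, 0.489 and 1.33 (-0.94 ± 0.59). Bcl2l14 had a positive difference (0.98 ± 0.73) that came from RPC1 alone, at 41.8 against 8.64 to 15.1 in the other animals.

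Among 15 apoptosome and caspase genes, 7 were positive and 8 negative, with a median of -0.01. Htra2, a mitochondrial protease released with cytochrome c, read 9.40 and 9.56 TMM-scaled CPM in RP against 5.76 and 6.07 in RPC (-0.68 ± 0.23, adjusted p = 0.301). Endog, a mitochondrial nuclease, was near 1 CPM or below in every animal (-1.06 ± 0.39, adjusted p = 0.313). Dffa, the inhibitor of the apoptotic DNase, stood apart in RP1 at 79.2 against 18.4 to 29.6 in the others. Among 10 direct partners and turnover genes, 3 were positive and 7 negative, with a median of -0.17. Bag6 read 61.8 and 56.7 in RP against 37.7 and 39.2 in RPC (-0.62 ± 0.15, adjusted p = 0.273). Dynll1, a dynein light chain, differed by -0.68 ± 0.26 (adjusted p = 0.323). Fbxw7, the ubiquitin ligase subunit that marks MCL1 for breakdown, ran the other way, at 137 and 162 against 202 and 218 (0.49 ± 0.15, adjusted p = 0.287).

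Within tumors, Bcl2 divided the nuclei of RP1. Tumor-like clusters were built without any gene of the family, and each cluster was mostly of 1 animal, so values here are plain CPM of 1 animal with exact Poisson 95% intervals that cover counting error only. The contrast in RP1 was chosen after its values were seen and has no test. In the cluster led by Pdzrn3, Eya1 and Negr1 (2459 nuclei, 35.0% of tumor-like nuclei of RP1) Bcl2 was 11.96 CPM (9.4 to 15.1), and in the smaller cluster led by Negr1, Eya1 and Pdzrn3 (774 nuclei, 11.01%) it was 13.2 CPM (9.5 to 17.7). In the cluster led by Nkain2, Sgcd and Dach2 (2183 nuclei, 31.0%) it was 96.8 CPM (91.7 to 102), 8.10 and 7.35 times as high. The other 16 sums of a cluster in an animal lay between 39.2 and 105 CPM, so both low values fell below them. The 39.2 CPM came from the Dmc1 cluster of RP1, with 4 transcripts in 58 nuclei. Its interval of 10.7 to 100 CPM overlapped those of both low values.

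The gap was present in every sublibrary, all of them parts of the same animal. The Pdzrn3 cluster gave 8.23 to 14.8 CPM there, the Negr1 cluster 5.61 to 19.0 and the Nkain2 cluster 87.6 to 116. By the score described further on, 20.2% of nuclei in the Pdzrn3 cluster, 97.6% in the Negr1 cluster and 64.0% in the Nkain2 cluster were mitotic, and the part of the cell cycle in the gap was not tested. For the 8 protein-coding genes within 1 Mb of Bcl2 that had at least 80 transcripts in the Nkain2 cluster, a limit set after the values were seen, the ratio to the Nkain2 cluster lay between 0.474 and 3.69, against 0.124 and 0.136 for Bcl2. Both ends came from Serpinb8, and the other genes, among them Kdsr and Vps4b on one side and Phlpp1 and Zcchc2 on the other, lay between 0.702 and 1.32. In the same clusters Bcl2l1 was 134 and 112 CPM against 107, and Mcl1 10.96 and 16.8 against 15.9, so neither was lower in both Bcl2-low clusters. The copy number of the locus was not measured.

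Across all 12 cluster sums of at least 500 nuclei, Mcl1 was 10.96 to 27.3 CPM in RP clusters and 22.3 to 23.7 in RPC clusters. Bid was 4.29 to 11.4 CPM in the 6 RP sums and 2.98 to 8.83 in the 6 RPC sums, so at the level of clusters the genotypes overlapped. The Dmc1 cluster of RPC2, at 8.83 CPM (6.5 to 11.7), lay above the Tph1 cluster of RP2 at 4.29 (2.8 to 6.2).

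**Figure D3:**
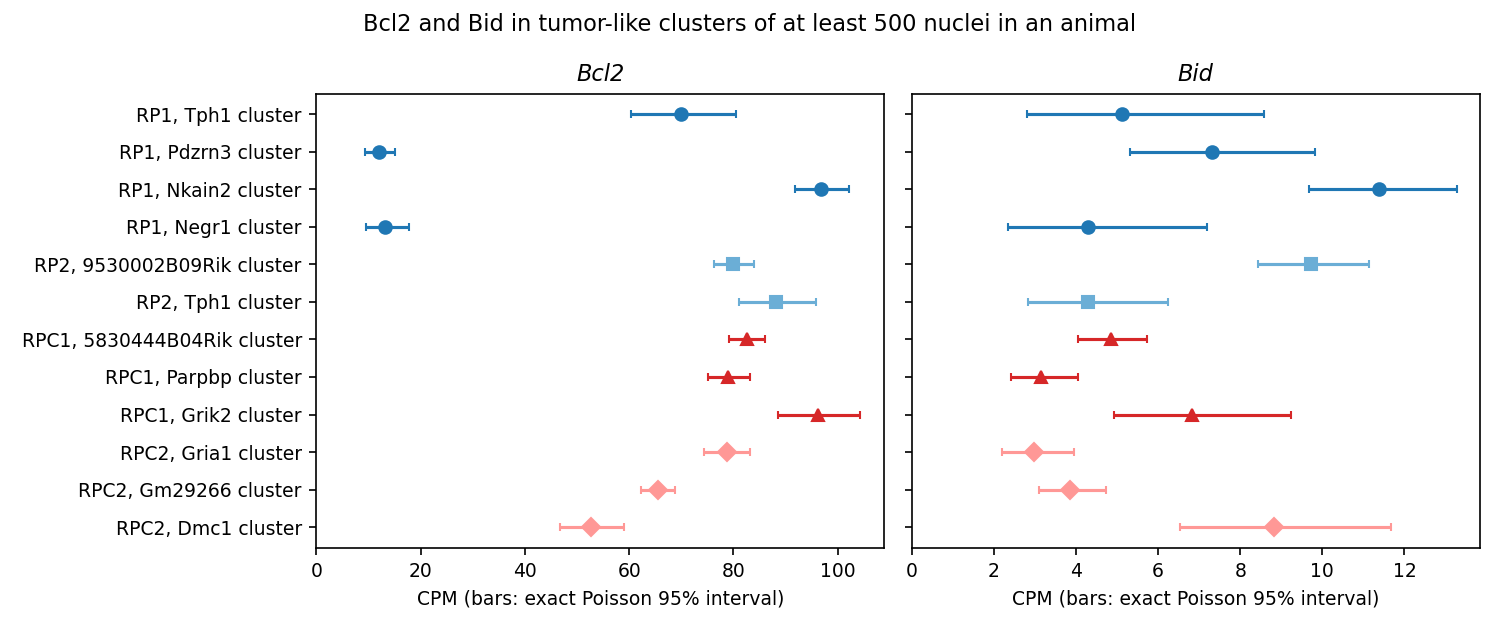
Plain CPM of Bcl2 (left) and Bid (right) in the tumor-like clusters with at least 500 nuclei in an animal, named by their leading gene, with exact Poisson 95% intervals. Bcl2 falls to 11.96 and 13.2 CPM in 2 clusters of RP1 and lies at 52.6 CPM or above elsewhere, and the Bid values of RP and RPC clusters overlap.

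Some members also differed between cell cycle states of tumor-like nuclei. Nuclei with at least 1000 transcripts were thinned to that depth. They were called mitotic with at least 3 transcripts of a mitotic list, S phase with at least 2 of a replication list, or other. The members were in neither list. Shallower nuclei got no state and were left out, 766, 758, 151 and 427 in RP1, RP2, RPC1 and RPC2. Mitotic nuclei made up 48.0%, 41.6%, 49.2% and 58.7% in RP1, RP2, RPC1 and RPC2, and S phase nuclei 31.6%, 35.5%, 34.7% and 24.8%. The states are ranges of a score, with 565 to 1013 nuclei per animal exactly at the mitotic limit and 840 to 1434 just under it. Median depth before thinning was higher in mitotic nuclei (2917 to 4107 transcripts) than in S phase (2321 to 3055) or other nuclei (2044 to 2766), and its part in the differences was not tested. Tests were run on full sums per animal and state with animal as a block.

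Against other nuclei, 3 of 9 tested members were higher in S phase (13.3% of 16484 genes were) and 1 was lower (13.6%). Bcl2l11 was 38.9, 45.7, 46.4 and 39.0 CPM in S phase nuclei of RP1, RP2, RPC1 and RPC2 against 28.2, 24.2, 29.96 and 22.5 in other nuclei. All S phase values lay above all other values, and the log2 fold change was 0.69 ± 0.08 (edgeR, adjusted p = 2.5e-06). Bcl2 was 68.2, 99.1, 81.7 and 72.1 CPM against 40.7, 69.3, 68.5 and 65.4 (0.37 ± 0.09, adjusted p = 0.0042). The rise of Bcl2 was seen in 4 of 4 animals and was widest in RP1, the animal with the Bcl2-low clusters. Bid was 9.75, 10.1, 5.28 and 4.34 CPM against 6.98, 5.99, 3.44 and 3.96 (0.53 ± 0.16, adjusted p = 0.0174), with RP above RPC in both states. This call was lost without RP1, RP2 or RPC1 (adjusted p of 0.0529, 0.131 and 0.0733) and when each state needed 1 transcript more (0.32, adjusted p = 0.0997). Bcl2l1 fell in S phase, at 126, 118, 102 and 139 CPM against 142, 137, 121 and 142 (-0.18 ± 0.05, adjusted p = 0.0060), and this call was lost without RP2 or RPC1 (adjusted p of 0.0598 and 0.0548) and without a filter on low counts (0.0564).

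Mitotic nuclei had 2 members higher (18.9% of genes were) and 2 lower (21%), so these counts stood near the shares of all genes. Bmf, a BH3-only protein tied to the cytoskeleton, showed the widest fall, to 11.2, 17.4, 19.1 and 13.5 CPM from 21.8, 30.9, 27.9 and 17.7 in other nuclei (-0.68 ± 0.09, adjusted p = 3.9e-06). Bmf was lower in 4 of 4 animals, by 0.39 to 0.96 on the log2 scale. Bcl2l1 also fell (-0.33 ± 0.04, adjusted p = 5.8e-06). Bcl2l11 rose by 0.46 ± 0.08 (adjusted p = 7.3e-05), and Bcl2 by 0.27 ± 0.08 (adjusted p = 0.0174), a call that was lost without RP1 (0.17, adjusted p = 0.111), without RPC1 (0.25, adjusted p = 0.0729) or without nuclei deeper than 4 times the median (0.24, adjusted p = 0.0712). Bid did not pass (0.32 ± 0.15, adjusted p = 0.102), nor did Bax, Bak1, Bbc3 or Mcl1 in either state.

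**Figure D4:**
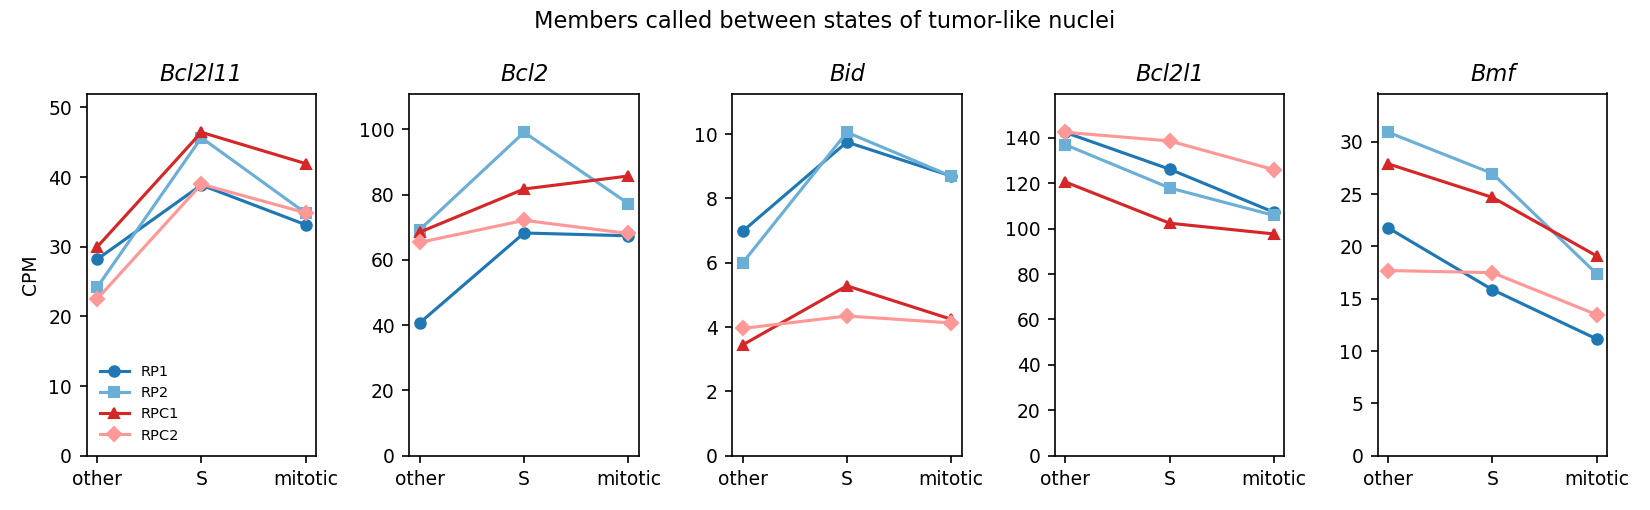
Plain CPM of the 5 members called in S phase or mitotic nuclei, by state of tumor-like nuclei, with 1 line per animal and axes from 0. Bcl2l11 rises from other to S phase nuclei in 4 of 4 animals, Bmf and Bcl2l1 fall from other to mitotic nuclei in 4 of 4, and the RP lines of Bid lie above the RPC lines in every state.

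In the wider pathway, 7 of 34 tested genes (20.6%) were higher and 6 (17.6%) lower in S phase, against 13.3% and 13.6% of all genes. In mitotic nuclei 8 (23.5%) were higher and 8 lower, against 18.9% and 21% of all genes. The genes higher in S phase included the apoptosome scaffold Apaf1 (log2 fold change 0.36 ± 0.08, adjusted p = 0.0022), Hrk (1.15 ± 0.38), Bok (0.31 ± 0.10), Bcl2l13 (0.23 ± 0.07) and the caspase inhibitor Xiap (0.15 ± 0.05). Those lower were Bcl2l14 (-0.65 ± 0.10), Bnip3 (-0.54 ± 0.07), Birc3 (-0.46 ± 0.10), Fbxw7 (-0.23 ± 0.04), Bnip3l (-0.23 ± 0.06) and Usp9x (-0.11 ± 0.04). In mitotic nuclei Hrk, Apaf1, Bcl2l13 and Xiap were among the genes higher again, joined by the dynein light chain Dynll1 (0.50 ± 0.16) and Bcl2l12 (0.41 ± 0.14). Bcl2l14, Bnip3, Birc3, Fbxw7, Bnip3l and Usp9x were lower again, joined by the nuclease Dffb (-0.46 ± 0.13) and the MCL1 ligase Huwe1 (-0.10 ± 0.04).

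Anti-apoptotic members reached higher levels in classes of other cells, and the balance between members was not tested. The members were left out of the genes used for clustering, and 3 classes had at least 50 nuclei in every animal. Neuroendocrine markers were still read in these classes, none of 16 at 0, at a median of 55.3% to 70.3% of the tumor-like level in macrophage or monocyte-like nuclei, 68.0% to 82.1% in endothelial-like and 70.7% to 85.0% in B cell-like nuclei, and the part of this signal in the differences was not tested. The edgeR fit covered 11777 genes and 8 members, and the percentages of genes below are from it. The DESeq2 counts of members have no such percentage beside them and are not read against all genes.

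B cell-like nuclei (380) had higher Bcl2, at 241, 198, 298 and 220 plain CPM in RP1, RP2, RPC1 and RPC2, against 63.8, 82.1, 82.7 and 68.5 in tumor-like nuclei. All B cell-like values lay above all tumor-like values (log2 fold change 1.65 ± 0.15, edgeR, adjusted p = 2.0e-08). Mcl1 was also higher (0.69 ± 0.20, adjusted p = 0.0249), so 2 of 8 members were higher (7.64% of genes) and 0 lower (4.84%), and DESeq2 called 2 higher. The Mcl1 call was lost without RP1, RP2 or RPC1 (log2 fold changes of 0.48, 0.72 and 0.65) and without a filter on low counts (0.49), where Bcl2l1 was called lower (-0.46, adjusted p = 0.0190). T or NK cell markers were read in this class too, with 2 to 4 of 12 at 0, a median of 435% to 1453% of the tumor-like level and a summed level of 872 to 1231 CPM against 893 to 1417 in tumor-like nuclei. A sub-cluster of 107 nuclei had Cd247 and Themis beside Bank1 and Pax5 among its leading genes. It was mostly of RP animals, with 75, 21, 1 and 10 nuclei of RP1, RP2, RPC1 and RPC2. In the 273 nuclei without it, an alternative chosen after seeing the data, Bcl2 was 471, 326, 297 and 226 CPM and Mcl1 50.1, 54.3, 40.9 and 27.3 CPM (the RP animals first), all above the tumor-like values. Mainly the RP values moved. Tests of this class, also between genotypes, used all 380 nuclei, and none was run without the sub-cluster.

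Endothelial-like nuclei (498) had all 3 anti-apoptotic members higher and none lower, against 12.5% of genes higher and 10.1% lower, and DESeq2 called 4 members higher. Bcl2l1 was 196, 194, 287 and 191 CPM (0.90 ± 0.15, adjusted p = 0.00011), against 117, 116, 101 and 130 in tumor-like nuclei. Bcl2 was 173, 118, 123 and 100 CPM (0.75 ± 0.14, adjusted p = 0.00045), and Mcl1 was 24.5, 45.3, 36.8 and 32.6 CPM (0.70 ± 0.16, adjusted p = 0.0030). For each of these genes every animal was higher in its endothelial-like than in its tumor-like nuclei.

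Macrophage or monocyte-like nuclei (814) had 4 members higher (20.4% of genes) and 0 lower (21.9%), and DESeq2 called 5 higher. Mcl1 was 34.8, 59.2, 75.8 and 49.5 CPM against 14.7, 25.0, 22.8 and 22.9 in tumor-like nuclei (1.35 ± 0.13, adjusted p = 3.1e-08). Bid was 8.40, 15.7, 13.8 and 12.2 CPM (1.08 ± 0.27, adjusted p = 0.0030), higher than in tumor-like nuclei in RP2, RPC1 and RPC2 but not in RP1 (8.76 in its tumor-like nuclei). Bcl2l1 (0.70 ± 0.14, adjusted p = 0.00047) and Bcl2l11 (0.53 ± 0.13, adjusted p = 0.0020) were higher too, whereas Bcl2 did not pass (0.26 ± 0.14, adjusted p = 0.136) except without nuclei deeper than 4 times the median (0.40, adjusted p = 0.0429). Pmaip1 had 15 transcripts in this class, at 9.61, 0.54, 2.51 and 1.52 CPM, against 13 in all 32180 tumor-like nuclei. Endothelial-like nuclei had 4 (0 to 3.88 CPM) and B cell-like nuclei 1 (0 to 2.71 CPM), so these classes overlapped with it.

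Of 32 other pathway genes tested, 2 (6.25%) were higher and 0 lower in B cell-like nuclei, against 7.64% and 4.84% of all genes. In endothelial-like nuclei 2 were higher and 1 (3.12%) lower, against 12.5% and 10.1%, and in macrophage or monocyte-like nuclei 4 (12.5%) were higher and 4 lower, against 20.4% and 21.9%, so these shares did not exceed those of all genes. The widest difference was that of Bcl2a1b, an anti-apoptotic relative of immune cells, in B cell-like (3.38 ± 1.05) and macrophage or monocyte-like nuclei (5.96 ± 0.49), although reads of the near-identical Bcl2a1 genes may be split between copies. Birc3, an inhibitor of apoptosis induced by NF-kB, was higher in B cell-like (3.14 ± 0.15), macrophage or monocyte-like (2.09 ± 0.14) and endothelial-like nuclei (1.27 ± 0.17). Bok, an effector relative, was lower in macrophage or monocyte-like (-0.96 ± 0.17) and endothelial-like nuclei (-0.60 ± 0.20). Xiap was higher in endothelial-like nuclei (0.48 ± 0.10). In macrophage or monocyte-like nuclei Vdac2 (0.60 ± 0.14) and Bag1 (0.41 ± 0.16) were higher, and the lower genes included Bik (-0.87 ± 0.25) and Dynll2 (-0.42 ± 0.11).

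Smaller classes were described without a test. Bcl2 was highest in T or NK cell-like nuclei (145), at 826 to 1912 CPM, followed by smooth muscle or pericyte-like nuclei (283 to 326) and B cell-like nuclei (198 to 298), of which the last and the one before it overlapped narrowly. Bcl2l1 had its highest means in alveolar type 1-like (280 to 525) and alveolar type 2-like nuclei (276 to 448), which overlapped. Fibroblast-like (200 to 380), smooth muscle or pericyte-like (99.5 to 336), club-like (175 to 300) and endothelial-like nuclei (191 to 287) reached into that range. Mcl1 ran from 23.7 to 129 CPM in alveolar type 1-like nuclei, on as few as 3 transcripts in an animal. Ranges over classes used sums of at least 20 nuclei in an animal. Bcl2 had the widest range of the members (5.52 in mean log2 CPM with an offset of 5), followed by Bbc3 (2.87). The low end of both was mesothelial-like nuclei, where only the sum of RP2 (22 nuclei) met that limit. Bcl2 in that class ran from 0 to 225 CPM over the animals, so its low end rests on RP2 alone. Bbc3 had 0 transcripts in all 45 nuclei of the class, so its low end equals the offset and the place of Bbc3 rests on it. Over 43 sums of a class in an animal, from 12 classes, the genes most like Bcl2 were Ets1 (Pearson r = 0.858), Lef1 (0.848), Gm37004 (0.828), Thy1 (0.826) and Samd3 (0.824), and those most like Bbc3 were Cfap54 (0.628), Slc12a7 (0.623), Cep131 (0.616), Irf7 (0.602) and Cep83 (0.596). These correlations are descriptions over sums that share animals, libraries and depth.

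**Figure D5:**
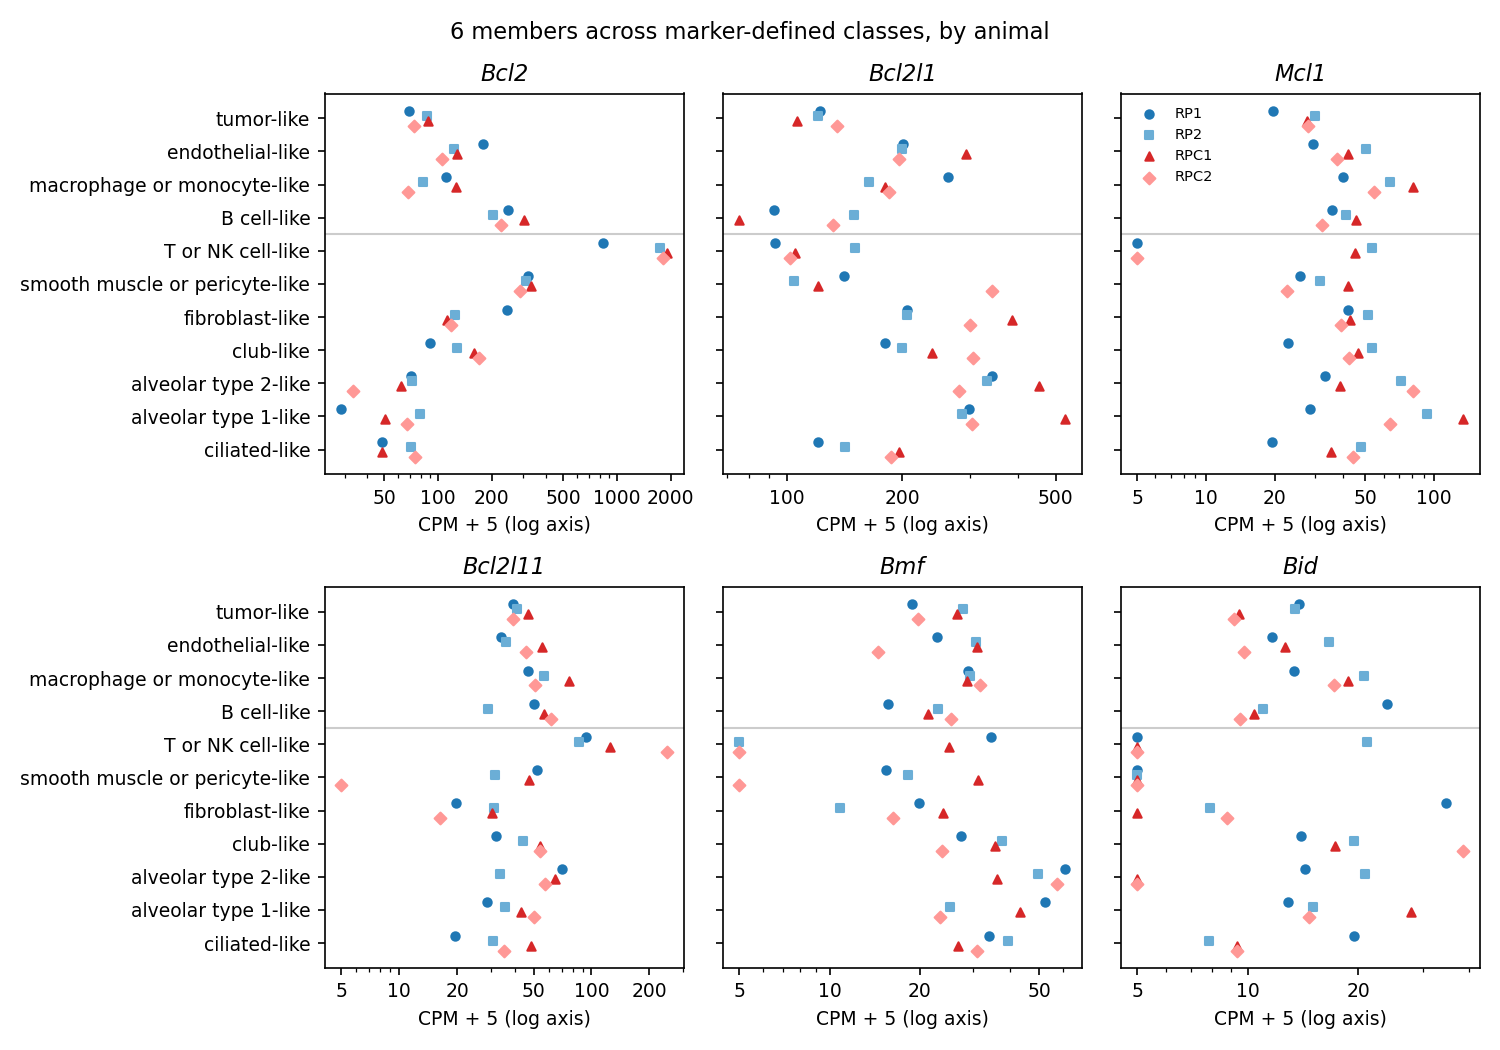
Plain CPM with an offset of 5 (log axis) of 6 members in 11 classes, with 1 point per animal; classes above the grey line had at least 50 nuclei in every animal and were tested. Bcl2 reaches 826 to 1912 CPM in T or NK cell-like nuclei. Bcl2l1 has its highest means in the alveolar classes, whose points overlap with those of other classes.

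In the other classes no member passed the test between RPC and RP. edgeR called 0 of 4 tested members in B cell-like nuclei (0.0702% of genes were called), 0 of 5 in endothelial-like nuclei (0.0552%) and 0 of 9 in macrophage or monocyte-like nuclei (0.00872%), and DESeq2 called 0 in each. The share of all genes at an unadjusted level under 0.05 is not given here. At that level was 1 member, Bak1 in macrophage or monocyte-like nuclei. Bak1 there was 18.0 and 14.1 CPM in RP1 and RP2 and 8.15 and 7.62 in RPC1 and RPC2 (-1.09 ± 0.41, adjusted p = 0.439), and Bak1 overlaps Ggnbp1 on the opposite strand. Bid in that class differed by -0.08 ± 0.43. The difference of genotype effects between classes was tested as an interaction, with 0 of 9 members called against tumor-like nuclei for B cell-like (0%), macrophage or monocyte-like (0.0081%) and endothelial-like nuclei (0.0567%). Bak1 in macrophage or monocyte-like nuclei was the 1 member at an unadjusted level under 0.05. This count, too, stands without the share of all genes at that level. The interaction for Bid in macrophage or monocyte-like nuclei was 0.93 ± 0.51 and for Bak1 -1.26 ± 0.53, each with an adjusted p of 1.0.

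To count nuclei that held a transcript at all, tumor-like nuclei were compared at 1 depth of 1000 transcripts. Shallower nuclei were left out, 766, 758, 151 and 427 in RP1, RP2, RPC1 and RPC2. Bid was found in 0.846% and 0.996% of RP nuclei and in 0.519% and 0.559% of RPC nuclei, and for Bbc3 0.925%, 0.981%, 0.442% and 0.534%. RP and RPC did not overlap for either gene, and the exact two-sided permutation test gave p = 0.333, the smallest value that 2 against 2 animals allow. Bcl2l1 was found in 9.48% to 11.5% and Bcl2 in 5.19% to 7.46% of nuclei, with overlapping genotypes. Pmaip1 was found in 0% of RP1 and RPC1 nuclei, 0.0307% of RP2 and 0.0121% of RPC2 nuclei at this depth. Before thinning the shares of the same nuclei were 3.45%, 3.403%, 2.36% and 2.14% for Bid and 3.56%, 3.28%, 2.66% and 3.47% for Bbc3, whose genotypes then overlapped.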

How the data were processed

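Nuclei of all 4 animals were pooled in each of 7 Parse Evercode libraries, and the first-round well names the animal, so the animal was the replicate. The deposited count matrices hold raw transcript counts per nucleus and gene, made by the authors with the Parse pipeline on GRCm39. Use of strand, and so the handling of overlapping genes, is not given in the sources used here. Of 12 columns in the deposited table of nuclei, 9 were not used.

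Nuclei with at least 300 transcripts, at most 10% mitochondrial counts and at most 12000 genes were kept. Clustering (2000 variable genes, 20 principal components, Leiden resolution 0.4, leidenalg 0.10.2) left out the BCL2 family and apoptosis lists, Rn18s-rs5 and mitochondrial genes. Clusters were named from 13 marker lists by a rule set after the clusters were seen. No doublet caller was run, and instead nuclei above 4 times the median depth were left out as an alternative. Barcodes shared between animals numbered 0.

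Counts were summed per animal and class or state and tested with edgeR 4.0.16 (R 4.3.3; TMM, filterByExpr, glmQLFit, glmQLFTest, two-sided, Benjamini-Hochberg over all genes tested, threshold 0.05), with animal as a block in comparisons within animals. SE was taken as the size of the log2 fold change over the root of the F statistic. DESeq2 1.42.0 was an alternative. Python 3.11.15, scipy 1.17.1 and scikit-learn 1.9.0 were used elsewhere. The scripts were tested on simulated counts. Interval and depth limits cover counting error only.

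The members and lists were chosen with earlier results of these data known. Named genes were the 10 members, the 3 largest differences of each pathway list, every list gene called, and for the 2 members with the widest class range the 5 most correlated genes. Replicate numbers 1 and 2 only name animals. Some genes of the pathway lists enter the counts but are not reported here by name.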

Additional observations from a re-analysis of the deposited data

How the results depend on the processing

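Of the counts of members called, those for macrophage or monocyte-like and for endothelial-like nuclei stayed at 4 and 3 with any 1 animal left out, B cell-like nuclei gave 1 to 2 and S phase nuclei 2 to 4. The genes called between RPC and RP went from 0 to 75 without a filter on low counts, to 633 with DESeq2 (which called 1 member) and to 0 to 22 with an animal left out, the 22 without RPC2. The replicate block called 0 genes and 0 members between RPC and RP, with Bid at -1.06. Deviations of same-numbered animals correlated at -0.042. The sign of values that passed no test turned as follows, and the cause was not tested. For RPC against RP, Bcl2 gave 0.051 without TMM, 0.00017 with RLE size factors, 0.057 without the filter, 0.00083 over all kept nuclei and 0.036 with DESeq2, where Bcl2l1 over all kept nuclei gave 0.023. Within single sublibraries Bcl2 gave 0.16, 0.0075 and 0.027, Mcl1 -0.075, Bax 0.018, Bak1 -0.018, -0.14 and -0.037, Bcl2l11 -0.0173, -0.0172 and -0.070, and Bmf 0.018. With an animal left out, ranges were -0.16 to 0.18 for Bcl2, -0.26 to 0.12 for Bcl2l1, -0.17 to 0.57 for Mcl1, -0.081 to 0.30 for Bak1, -0.062 to 0.20 for Bcl2l11 and -0.38 to 0.32 for Bmf.

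In B cell-like nuclei the ranges with an animal left out were -0.61 to 0.012 for Bax and -0.052 to 0.84 for Bid, and Bmf was 0.081 without deep nuclei. In endothelial-like nuclei they were -0.018 to 0.17 for Bcl2l11 and -0.028 to 0.28 for Bmf, which were -0.057 and -0.087 without the filter. In S phase they were -0.020 to 0.070 for Mcl1 and -0.14 to 0.22 for Bbc3, and in mitotic nuclei -0.019 to 0.18 and -0.15 to 0.28. With 1 transcript more per state Mcl1 was -0.13 (S phase) and -0.041 (mitotic) and Bbc3 0.082 (S phase). Bbc3 was 0.0057 in S phase without the filter and -0.0053 in mitotic nuclei with RLE size factors. Differences in shares, in percentage points, ranged with an animal left out from -0.741 to 1.49 for Bcl2, -1.33 to 0.702 for Bcl2l1, -0.561 to 0.844 for Mcl1, -0.245 to 0.0025 for Bax, -0.0057 to 1.23 for Bcl2l11, -0.0246 to 0.0061 for Pmaip1 and -0.427 to 0.533 for Bmf. Without thinning they were 5.23 for Bcl2l1, 0.0795 for Bax and 0.0154 for Pmaip1, and at 2000 transcripts 0.0149 for Pmaip1 and -0.114 for Bmf. At resolution 0.8 a B cell-like test was not run, as an animal had under 50 such nuclei. Leaving out an animal leaves its genotype with 1, assumed to vary like the others. Depth limits Pmaip1 most, at 13 transcripts in all tumor-like nuclei.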
